A study of Mus musculus with 143 samples.

Results

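Inhibitory receptors of T cells other than PD-1 were followed across mouse tumours treated with an antibody against PD-1. The members were 7 genes, Ctla4, Lag3, Havcr2, Tigit, Btla, Cd96 and Cd160, taken by gene identifier. They were chosen by name, with earlier results of these data known. All 7 were found among the 54232 gene identifiers of the deposited expression table, each as 1 row, and were read in every tumour library of the series.

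These receptors sit on T cells and, in part, on natural killer (NK) cells. They are described mainly as restraints on signalling through the T-cell receptor or through activating NK receptors. CTLA-4 competes with the co-stimulatory receptor CD28 for CD80 and CD86. BTLA and CD160 bind the herpesvirus entry mediator, LAG-3 binds MHC class II, TIM-3 (the product of Havcr2) has galectin-9 and CEACAM1 among its described ligands, and TIGIT and CD96 compete with the activating receptor CD226 for proteins of the nectin family. In tumours, T cells that meet antigen for a long time carry several of these receptors together with PD-1, and several are targets of antibodies given alone or with an antibody against PD-1. Some are not restricted to T cells: TIM-3 is also made by macrophages and dendritic cells, BTLA by B cells, and CD96 and CD160 by NK cells.

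The series holds tumours of 11 mouse cell lines (4T1, B16F10, CM3, CT26, EMT6, LL2, MB49, MBT2, MC38, RENCA and TC1), each grown from cells injected under the skin of the flank. Each model has 3 arms: 3 untreated tumours taken at baseline, 5 tumours of mice given the isotype control antibody mIgG1, and 5 tumours of mice given muDX400, an antibody against PD-1. Both antibodies were injected 11 days and again 15 days after implantation, and these tumours were removed on day 19, that is, 8 days after the first injection. By the labels' response class for PD-1 blockade, 3 models are High (MC38, CM3 and MBT2), 4 are Partial (RENCA, CT26, EMT6 and MB49) and 4 are Resistant (TC1, LL2, B16F10 and 4T1). The sources used here do not give the strain, sex or age of the hosts. All tumours are subcutaneous, whatever the tissue of the line, and each model is a single line. The labels do not say that every library of a group came from its own mouse, so p-values measure the spread between these samples.

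The RNA came from whole tumour tissue, so that more cells of a type and more RNA per cell cannot be told apart in any value here. Sequencing depth, estimated from the smallest steps of the values, was 11.4 to 25.4 M fragments in 134 libraries and 35.9 to 49.5 M in 9 others, the baseline tumours of TC1, RENCA and B16F10. At the median depth 1 fragment was worth between 0.0143 FPKM (Btla) and 0.0527 FPKM (Tigit), FPKM being fragments per kilobase of transcript scaled to sequencing depth, so group means near 0.1 FPKM rest on a handful of fragments. Transcripts of 5 T-cell genes (Cd3d, Cd3e, Cd3g, Cd5 and Cd6) were present in every group, but their summed level was only 0.589 FPKM in LL2 isotype tumours and 1.03 FPKM in TC1 isotype tumours, against 35.3 FPKM in MBT2. A few libraries stood apart from their group. Replicate 4 of the CM3 isotype arm had a summed T-cell level of 39.4 FPKM where the other 4 had 9.36 to 15.1, replicate 2 of the RENCA isotype arm had 106 FPKM where the others had 7.27 to 27.0, and replicate 3 of the MBT2 muDX400 arm had 34.7 FPKM where the others had 49.0 to 107. In the same RENCA library 4 B-cell genes (Ms4a1, Cd79a, Cd79b and Pax5) summed to 684 FPKM, against 2.37 to 4.61 in the other 4. Where leaving out one of these libraries changed a call on a receptor, both values are given. Sample numbers fall into blocks. Both antibody arms of a model are always in the same block, but the baseline arm is in another block in every model except B16F10 and RENCA.

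In the GENCODE M21 annotation of GRCm38, Ctla4 (ENSMUSG00000026011) lies on the plus strand at chr1:60887000-60915832, Lag3 (ENSMUSG00000030124) on the minus strand at chr6:124904361-124911705 and Havcr2 (ENSMUSG00000020399) on the plus strand at chr11:46454935-46481255. Chromosome 16 carries 3 members: Tigit (ENSMUSG00000071552, minus strand, chr16:43648867-43664146), Btla (ENSMUSG00000052013, plus strand, chr16:45224315-45257670) and Cd96 (ENSMUSG00000022657, minus strand, chr16:46035657-46120251). Cd160 (ENSMUSG00000038304) is on the minus strand at chr3:96798763-96829351 and shares 68 exon bases with Pdzk1 on the other strand. The libraries keep strand, but the sources used here do not say whether counting used it, so Cd160 values could hold a few fragments of Pdzk1. The values are over whole genes, all 7 of which are protein coding, with their untranslated regions included.

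The 250 bases before the transcription start are shown for 4 members that were higher together after muDX400 in MC38 and have 1 start each in the promoter table of RefSeq (GRCm38.p6), which held entries for 6 of the 7 genes. Capitals mark exact matches, on either strand, to the AP-1 motif TGANTCA, the interferon-type GAS motif TTCNNNGAA, the T-box motif TCACACC, the RUNX motif TGTGGT or the CRE motif TGACGTCA, which were the motifs searched beside the short NFAT core GGAAA. The NFAT core is not marked because it is common. The windows are chr1:60908775-60909024 (plus strand, Ctla4), chr11:46454681-46454930 (plus strand, Havcr2), chr16:43664185-43664434 (minus strand, Tigit) and chr16:46120249-46120498 (minus strand, Cd96), each printed along its gene's own strand.
Ctla4: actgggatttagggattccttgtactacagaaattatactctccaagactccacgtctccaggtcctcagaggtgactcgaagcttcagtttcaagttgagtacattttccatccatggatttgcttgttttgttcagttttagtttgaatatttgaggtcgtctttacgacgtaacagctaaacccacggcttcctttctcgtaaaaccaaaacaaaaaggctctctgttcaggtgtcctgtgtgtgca
Havcr2: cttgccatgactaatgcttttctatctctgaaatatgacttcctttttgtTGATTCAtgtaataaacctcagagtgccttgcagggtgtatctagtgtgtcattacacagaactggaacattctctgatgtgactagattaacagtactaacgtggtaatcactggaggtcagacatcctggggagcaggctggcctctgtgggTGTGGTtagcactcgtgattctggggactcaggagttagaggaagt
Tigit: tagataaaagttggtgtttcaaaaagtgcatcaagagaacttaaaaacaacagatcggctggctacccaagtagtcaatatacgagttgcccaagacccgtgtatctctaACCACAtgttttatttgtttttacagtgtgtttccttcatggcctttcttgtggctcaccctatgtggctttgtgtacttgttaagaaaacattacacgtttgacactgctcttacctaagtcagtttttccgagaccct
Cd96: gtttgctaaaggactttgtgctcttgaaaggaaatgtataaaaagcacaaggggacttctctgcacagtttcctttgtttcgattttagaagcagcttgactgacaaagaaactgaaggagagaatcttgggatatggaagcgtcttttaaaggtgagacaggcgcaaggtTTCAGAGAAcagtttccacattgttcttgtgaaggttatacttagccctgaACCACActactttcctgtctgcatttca
Counted from the start site, Havcr2 has an AP-1 match beginning at -200 and a RUNX match at -46, Tigit a RUNX match at -140 and Cd96 a GAS match at -79 and a RUNX match nearer the start. Ctla4 has none of the marked motifs in this window and 1 NFAT core. Over the 300 bases of the table (250 before and 50 after the start), a RUNX match stands in 16.8% of 32851 mouse promoters, an AP-1 match in 7.81%, a GAS match in 8.30%, a T-box match in 3.98%, a CRE match in 1.79% and the NFAT core in 61.3%. A match is a description of these letters only. At least 1 of the windows of 5 of the 6 genes, Ctla4 being the exception, holds the RUNX letters.

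Among isotype tumours, Lag3, Havcr2 and Tigit were the receptors with the highest levels and Btla, Cd96 and Cd160 those with the lowest. The median over the 11 model means was 4.28 FPKM for Lag3, 3.94 for Havcr2, 4.68 for Tigit and 1.06 for Ctla4, against 0.413 for Btla, 0.505 for Cd96 and 0.318 for Cd160. Every receptor varied widely between models, from a 16.3-fold range of model means for Tigit to a 66.5-fold range for Cd96. The models did not rank alike for all 7 receptors: RENCA had the highest isotype mean of Ctla4, Lag3, Btla and Cd160, EMT6 of Havcr2, CT26 of Tigit and MBT2 of Cd96. Without replicate 2 of its isotype arm RENCA kept the first place for Lag3 (15.3 ± 10.7 FPKM, SD, n = 4) but not for Ctla4 (1.54 ± 0.321), Cd160 (1.02 ± 0.525) or Btla (0.189 ± 0.11). B16F10, LL2 or TC1 stood last for each.

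**Figure D1:**
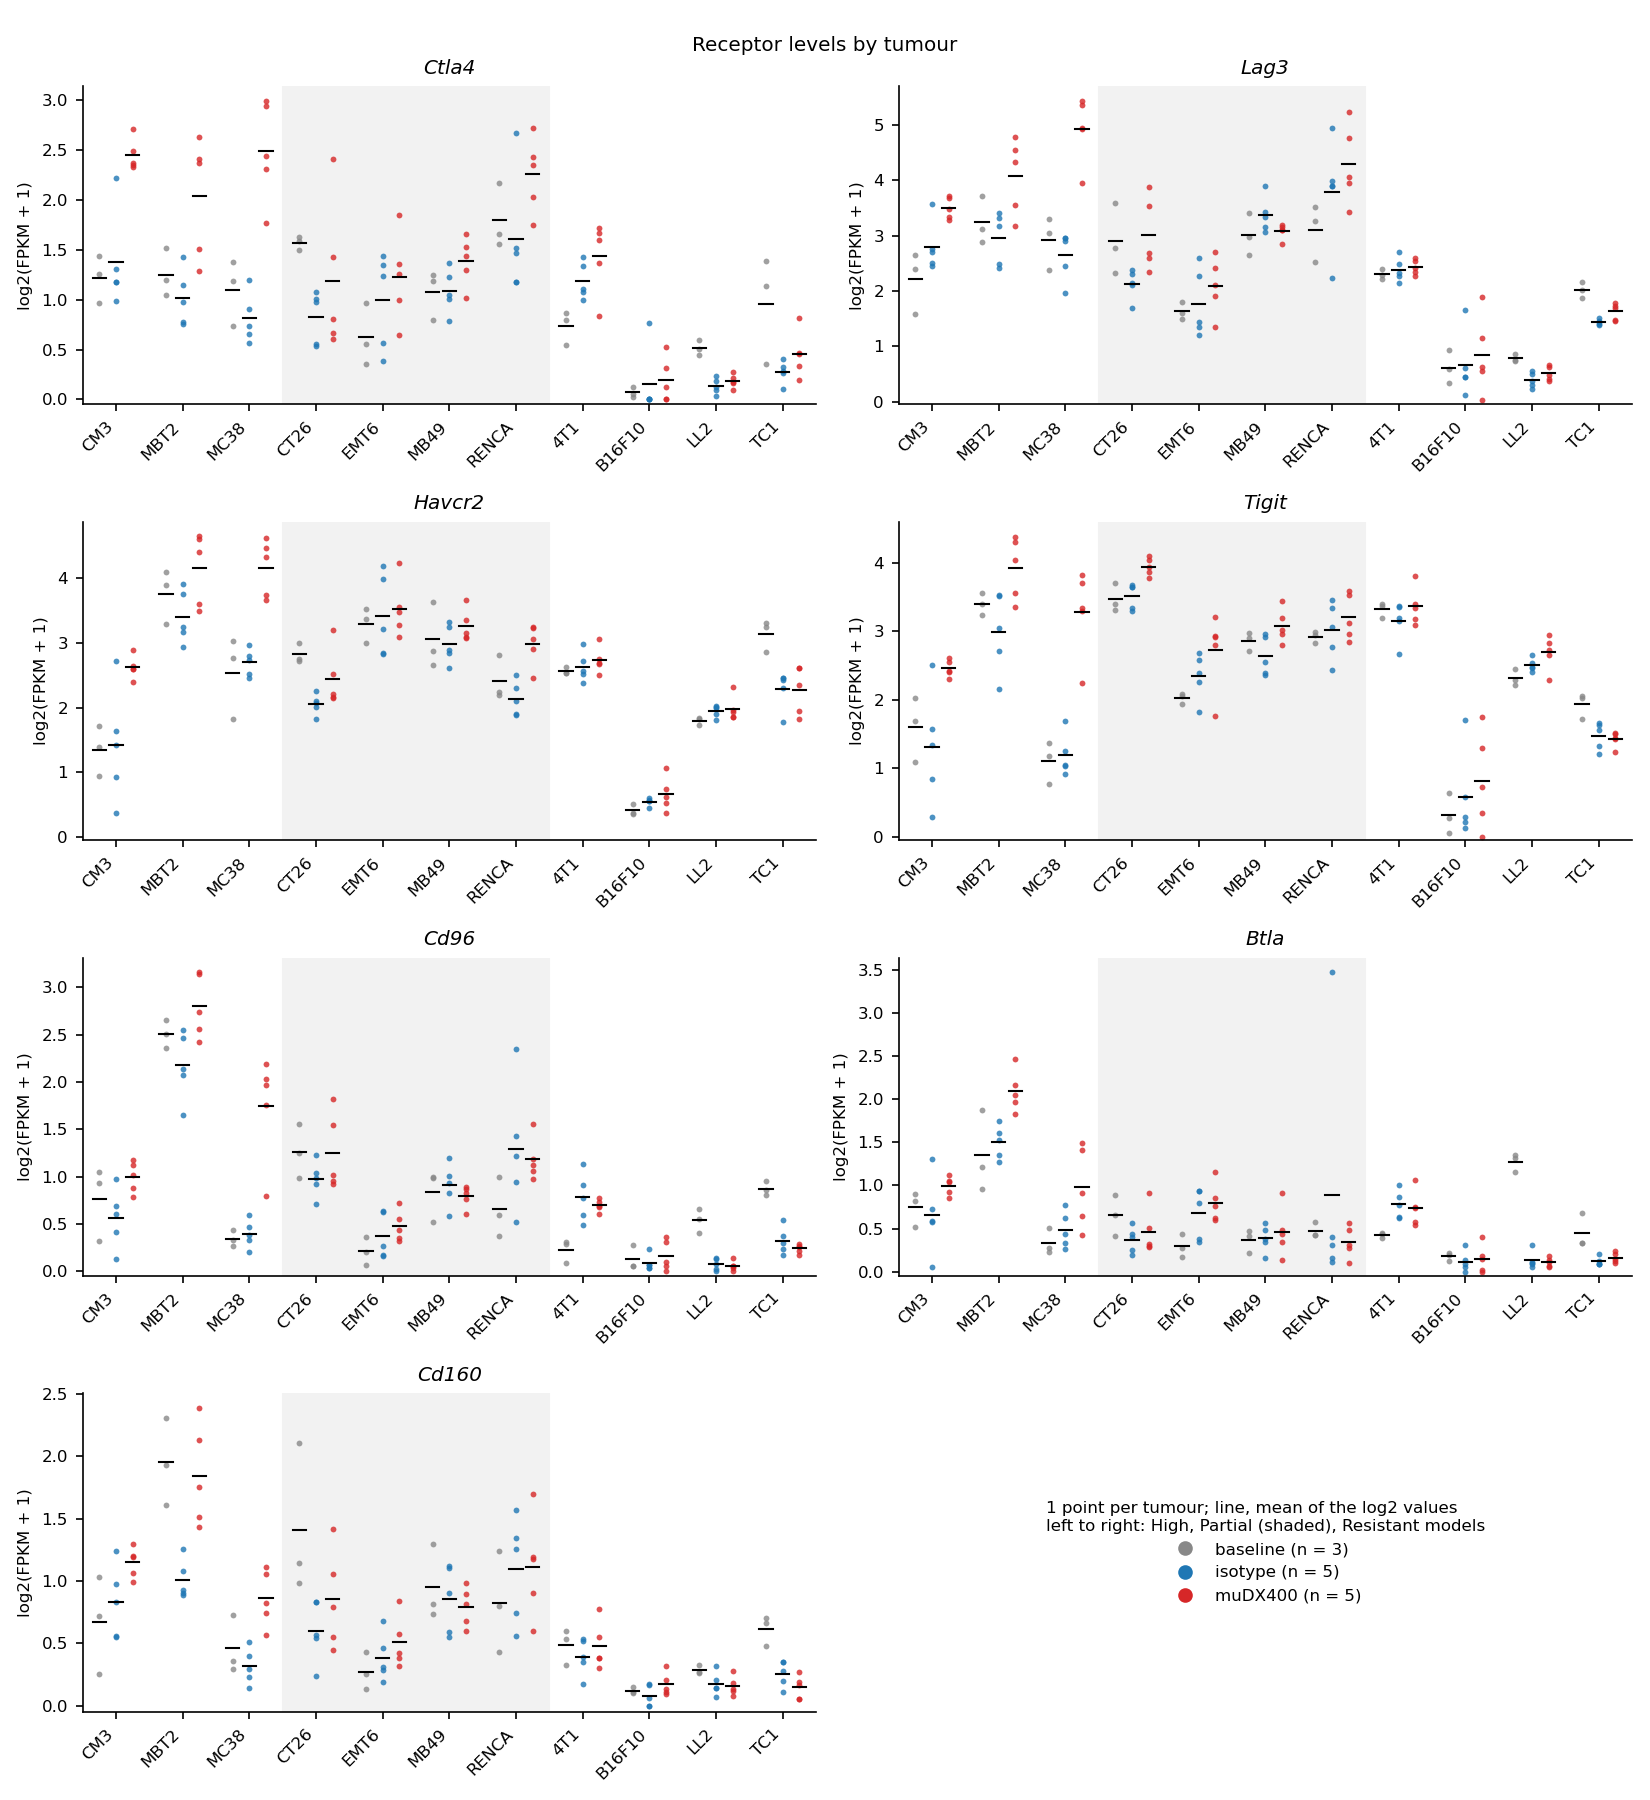
Level of each receptor in every tumour, as log2(FPKM + 1) on the vertical axis, by model on the horizontal axis, with 1 point per tumour, the arms in colour and a line at the mean of the log2 values (baseline n = 3, isotype n = 5, muDX400 n = 5). In MC38 the muDX400 tumours lie above the isotype tumours for 6 receptors without overlap. In the isotype and muDX400 arms B16F10, LL2 and TC1 lie low for most receptors.

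Ctla4 encodes the receptor that takes CD80 and CD86 away from CD28 and is abundant on regulatory T cells. Its isotype means in FPKM, from high to low, were 2.31 ± 1.74 (SD, n = 5 in each model) in RENCA, 1.73 ± 1.09 in CM3, 1.29 ± 0.297 in 4T1, 1.15 ± 0.328 in MB49, 1.08 ± 0.643 in EMT6, 1.06 ± 0.417 in MBT2, 0.800 ± 0.313 in CT26, 0.778 ± 0.324 in MC38, 0.216 ± 0.0903 in TC1, 0.141 ± 0.316 in B16F10 and 0.0986 ± 0.061 in LL2. Neighbours in this order overlapped in range except MC38 and TC1. In B16F10 isotype tumours Ctla4 was listed at 0 in 4 of the 5 libraries and at 0.706 FPKM in replicate 3, the library with the highest T-cell sum of that arm (4.02 FPKM, the others 0.106 to 1.24). After muDX400 the highest means were those of MC38, 4.88 ± 1.92, and CM3, 4.49 ± 0.626.

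In MC38 the 5 isotype tumours had 0.666, 0.576, 0.876, 1.30 and 0.479 FPKM of Ctla4 and the 5 muDX400 tumours 3.96, 6.66, 6.96, 4.42 and 2.40 FPKM. The arms did not overlap, and the ratio of their means was 6.27. The difference was 1.68 ± 0.22 (SE) on the log2(FPKM + 1) scale, with an adjusted p of 0.00131 by limma with Benjamini-Hochberg adjustment over all genes tested; this scale understates changes of low genes. Ctla4 was the receptor whose difference was positive in all 11 models. In CM3 the muDX400 tumours, at 5.53, 4.10, 4.17, 4.03 and 4.63 FPKM, also all lay above the isotype tumours, at 1.27, 1.27, 0.979, 3.66 and 1.47 FPKM, but the difference of 1.08 ± 0.22 did not pass (adjusted p = 0.211). In RENCA, Ctla4 was at 4.37, 4.08, 3.09, 5.61 and 2.37 FPKM after muDX400 and at 1.27, 5.37, 1.77, 1.27 and 1.86 FPKM in the isotype arm. That overlap comes from replicate 2 of the isotype arm, the library with the high B-cell and T-cell sums, and the difference was 0.65 ± 0.30 with it (adjusted p = 0.384) and 0.92 ± 0.22 without it (adjusted p = 0.0770).

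Btla encodes a receptor for the herpesvirus entry mediator that B cells and dendritic cells carry as well as T cells. Its isotype means were 2.16 ± 4.42 FPKM in RENCA, 1.85 ± 0.379 in MBT2, 0.726 ± 0.196 in 4T1, 0.633 ± 0.525 in CM3, 0.627 ± 0.319 in EMT6, 0.413 ± 0.213 in MC38, 0.312 ± 0.137 in MB49, 0.297 ± 0.134 in CT26, 0.101 ± 0.0795 in LL2, 0.0873 ± 0.0906 in B16F10 and 0.0867 ± 0.0373 in TC1. The first place of RENCA rests on replicate 2, which had 10.1 FPKM where the other 4 tumours had 0.0801 to 0.320. MBT2 was the one model whose range lay wholly above that of its lower neighbour, 4T1. In MC38, Btla was at 0.198, 0.356, 0.254, 0.544 and 0.712 FPKM in isotype tumours and at 0.346, 1.81, 1.65, 0.886 and 0.558 FPKM after muDX400. These arms overlapped, and Btla was the only member that did not pass in MC38 (0.49 ± 0.20, adjusted p = 0.0954); without replicate 1 of the muDX400 arm it did (0.63, adjusted p = 0.0351). In MBT2 its 5 muDX400 tumours, at 2.56, 4.51, 3.46, 2.92 and 3.14 FPKM, all exceeded the isotype tumours, at 1.88, 2.36, 1.56, 2.04 and 1.41 FPKM (0.59 ± 0.13, adjusted p = 0.0642). In RENCA the difference was -0.54 ± 0.55 with replicate 2 of the isotype arm and 0.10 ± 0.11 without it, neither of which passed (adjusted p = 0.745 and 0.734).

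Cd160, which encodes the other receptor for the herpesvirus entry mediator and is found on NK cells and cytotoxic T cells, had isotype means of 1.21 ± 0.62 FPKM in RENCA, 1.02 ± 0.228 in MBT2, 0.831 ± 0.337 in MB49, 0.809 ± 0.377 in CM3, 0.531 ± 0.252 in CT26, 0.318 ± 0.131 in 4T1, 0.315 ± 0.181 in EMT6, 0.248 ± 0.125 in MC38, 0.196 ± 0.084 in TC1, 0.130 ± 0.075 in LL2 and 0.0581 ± 0.0632 in B16F10. All 10 pairs of neighbours in this order overlapped. In MC38 the isotype tumours had 0.320, 0.171, 0.421, 0.224 and 0.103 FPKM and the muDX400 tumours 0.676, 1.17, 1.08, 0.773 and 0.478 FPKM. The arms did not overlap, with a ratio of means of 3.37 and a difference of 0.55 ± 0.11 (adjusted p = 0.00835). Cd160 also did not overlap between the arms in MBT2, where the isotype tumours had 1.12, 1.38, 0.848, 0.897 and 0.875 FPKM and the muDX400 tumours 2.38, 3.39, 1.70, 4.23 and 1.86 FPKM (0.83 ± 0.17, adjusted p = 0.0642).

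Lag3, whose product binds MHC class II molecules, reached the highest level of any member. Its isotype means were 15.2 ± 9.31 FPKM in RENCA, 9.63 ± 2.58 in MB49, 7.12 ± 2.48 in MBT2, 6.29 ± 2.66 in CM3, 5.49 ± 1.76 in MC38, 4.28 ± 0.805 in 4T1, 3.42 ± 0.770 in CT26, 2.69 ± 1.66 in EMT6, 1.72 ± 0.0964 in TC1, 0.698 ± 0.822 in B16F10 and 0.319 ± 0.128 in LL2, and all 10 pairs of neighbours overlapped. RENCA tumours were uneven, at 29.8, 14.9, 14.0, 3.73 and 13.9 FPKM. In MC38 the isotype tumours had 6.80, 4.45, 6.81, 6.51 and 2.88 FPKM and the muDX400 tumours 29.8, 40.3, 42.2, 29.5 and 14.5 FPKM. Even the lowest of the 5 treated tumours was above the highest isotype tumour. The difference of 2.28 ± 0.28 was the largest log2 difference of any member in any model (ratio of means 5.70, adjusted p = 0.00121). Elsewhere the differences ran from -0.30 ± 0.15 in MB49 (adjusted p = 0.568) to 1.12 ± 0.32 in MBT2 (adjusted p = 0.0775), where the isotype tumours had 4.63, 8.98, 9.67, 7.98 and 4.34 FPKM and the muDX400 tumours 19.1, 22.4, 8.08, 26.6 and 10.8 FPKM.

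Havcr2 encodes TIM-3, which is found on T cells that have turned dysfunctional and on myeloid cells. Its isotype means were 10.5 ± 5.16 FPKM in EMT6, 9.92 ± 3.16 in MBT2, 7.02 ± 1.63 in MB49, 5.54 ± 0.950 in MC38, 5.26 ± 1.03 in 4T1, 3.94 ± 0.871 in TC1, 3.47 ± 0.848 in RENCA, 3.17 ± 0.452 in CT26, 2.86 ± 0.240 in LL2, 2.11 ± 2.06 in CM3 and 0.460 ± 0.0584 in B16F10. All 10 neighbouring pairs overlapped. In MC38 it was at 5.68, 5.92, 4.74, 6.85 and 4.49 FPKM in isotype tumours and at 12.4, 23.6, 21.1, 19.0 and 11.6 FPKM after muDX400. The arms did not overlap (1.47 ± 0.19, ratio of means 3.17, adjusted p = 0.00131). In RENCA the isotype tumours had 2.68, 4.69, 2.73, 3.92 and 3.31 FPKM and the muDX400 tumours 8.36, 7.38, 6.48, 8.48 and 4.48 FPKM, an overlap of 1 tumour in each arm. The difference was 0.84 ± 0.21 (adjusted p = 0.0733), and 0.97 ± 0.20 without replicate 5 of the muDX400 arm (adjusted p = 0.0461). CM3 had the second largest difference, 1.21 ± 0.36 (adjusted p = 0.211), from isotype tumours at 2.10, 0.901, 0.294, 5.58 and 1.69 FPKM to muDX400 tumours at 6.38, 4.28, 5.01, 5.23 and 5.05 FPKM. Replicate 4 of the isotype arm was again the tumour that overlapped.

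Tigit, whose product binds the poliovirus receptor and nectins in competition with CD226, had isotype means of 10.5 ± 1.44 FPKM in CT26, 7.96 ± 1.60 in 4T1, 7.43 ± 3.06 in MBT2, 7.31 ± 2.28 in RENCA, 5.29 ± 1.26 in MB49, 4.68 ± 0.376 in LL2, 4.18 ± 1.11 in EMT6, 1.83 ± 1.72 in CM3, 1.80 ± 0.370 in TC1, 1.32 ± 0.539 in MC38 and 0.645 ± 0.911 in B16F10. Neighbours overlapped in all 10 pairs. LL2, last of the 11 models for Ctla4, Lag3 and Cd96, was in the middle for Tigit. In MC38 the isotype tumours had 1.05, 0.885, 1.07, 2.23 and 1.37 FPKM and the muDX400 tumours 9.09, 13.1, 12.01, 8.77 and 3.73 FPKM. The treated tumours all lay above the isotype tumours (2.09 ± 0.27, ratio of means 7.05, adjusted p = 0.00131), and MC38 moved from the next to last place among the 11 models in the isotype arm to the fourth place after muDX400. In CT26 the arms did not overlap either, with 8.85, 11.8, 11.5, 11.4 and 9.06 FPKM in isotype tumours and 16.1, 13.5, 12.7, 15.4 and 14.3 FPKM after muDX400, a difference of 0.42 ± 0.10 that did not pass (adjusted p = 0.104).

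Cd96, which encodes a further receptor for the nectin family on T cells and NK cells, was highest in MBT2. The isotype means were 3.63 ± 1.09 FPKM there, 1.69 ± 1.42 in RENCA, 0.983 ± 0.257 in CT26, 0.896 ± 0.295 in MB49, 0.738 ± 0.314 in 4T1, 0.505 ± 0.326 in CM3, 0.321 ± 0.133 in MC38, 0.311 ± 0.224 in EMT6, 0.257 ± 0.129 in TC1, 0.0618 ± 0.0652 in B16F10 and 0.0545 ± 0.0448 in LL2, with overlap in all 10 pairs of neighbours. In MC38 the isotype tumours had 0.387, 0.255, 0.306, 0.504 and 0.154 FPKM and the muDX400 tumours 2.90, 3.58, 3.09, 2.37 and 0.739 FPKM. The arms did not overlap, and the ratio of means, 7.89, was the highest of the 7 receptors, while the log2 difference was 1.35 ± 0.22 (adjusted p = 0.00281) because the added 1 FPKM weighs more at low levels. In MBT2 the isotype tumours had 3.22, 4.86, 4.54, 3.40 and 2.14 FPKM and the muDX400 tumours 5.68, 7.80, 4.37, 7.91 and 4.89 FPKM (0.63 ± 0.19, adjusted p = 0.0903).

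**Figure D2:**
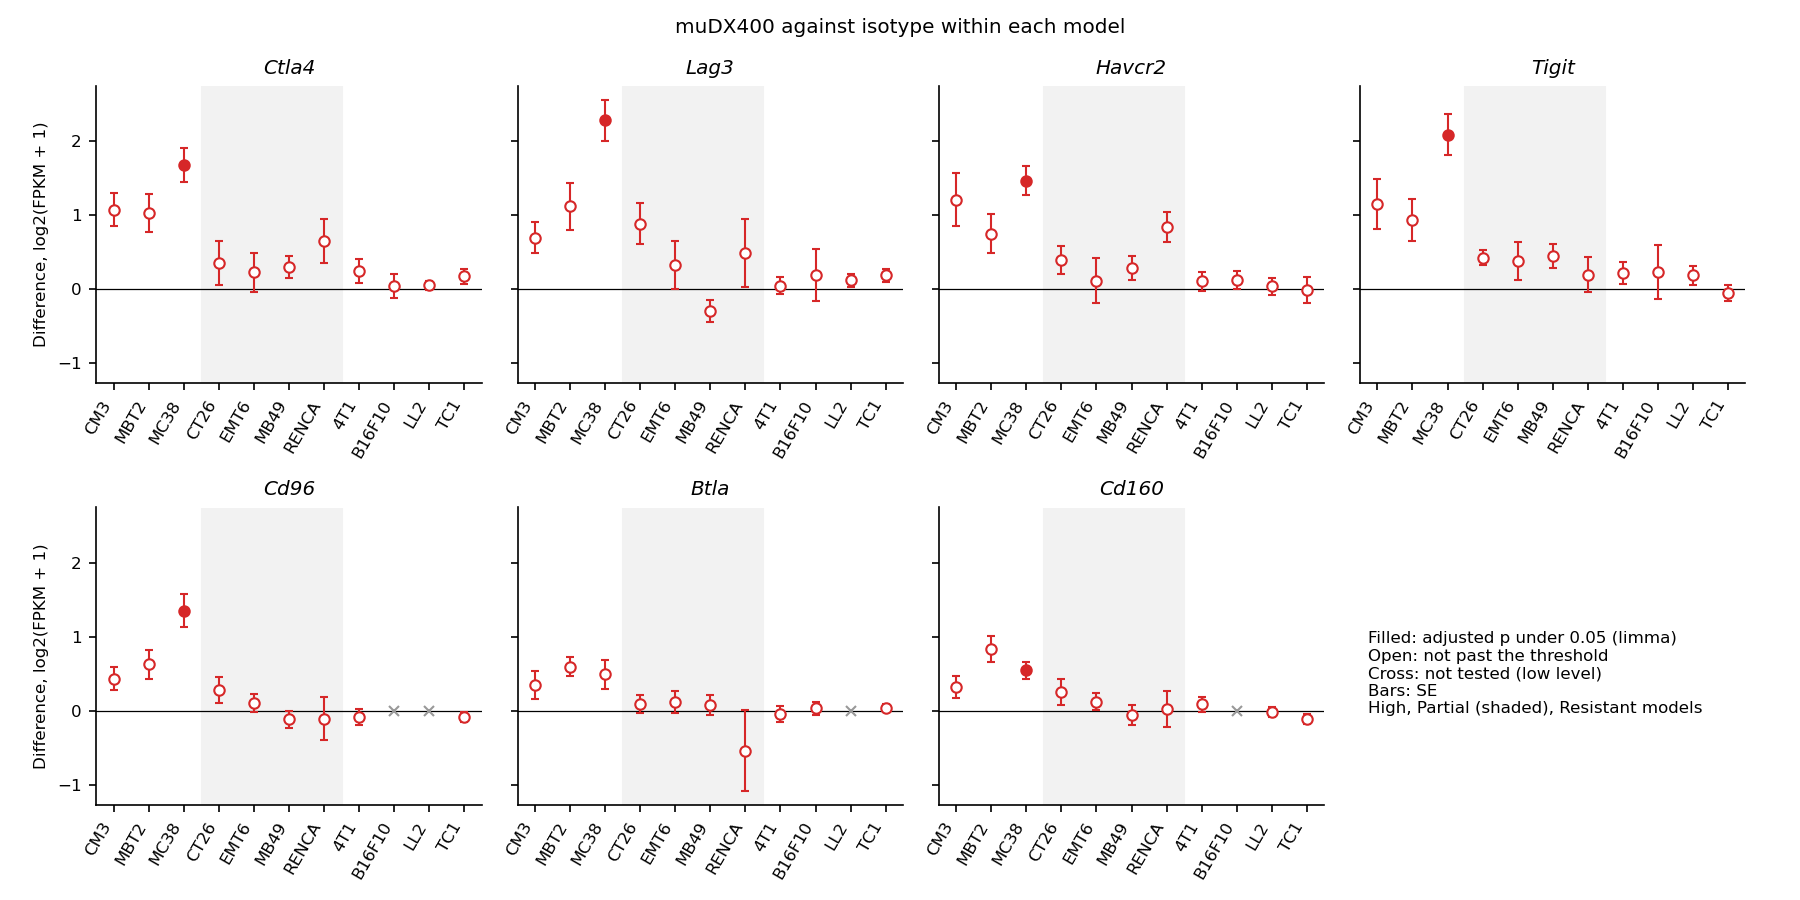
Difference between muDX400 and isotype tumours for each receptor (log2(FPKM + 1) scale, vertical axis) in each model (horizontal axis), with bars for the SE and filled points where the adjusted p was under 0.05. The 6 filled points are those of MC38, and the points of CM3 and MBT2 lie between 0.32 and 1.21 for all 7 receptors.

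Within single models, then, 6 of the 73 member-by-model differences that could be tested passed, all 6 higher and all 6 in MC38, and 0 were lower. Over the 11 models together 2.36% of all gene-by-model tests passed. In MC38 itself 22.7% of 18305 genes passed, 14.0% higher and 8.68% lower, so a passing gene was common there, and 6 of 7 receptors did. The 4 differences not tested, Cd96 and Cd160 in B16F10 and Btla and Cd96 in LL2, fell below the minimum mean of 0.1 FPKM. The sign was positive in 61 of the 73. The arms did not overlap, with muDX400 higher, in 10 (2.12% of all gene-by-model pairs): 6 in MC38 (8.51% of all genes tested there), Btla and Cd160 in MBT2 (2.53%), Ctla4 in CM3 (2.10%) and Tigit in CT26 (2.51%). In 0 the arms were apart with muDX400 lower (1.57% of all pairs). In CT26 0.340% and in RENCA 1.64% of genes passed the test, and 1.20% in RENCA without replicate 2 of the isotype arm. The MC38 differences of Ctla4, Lag3, Havcr2 and Tigit passed under every alternative tried. Those of Cd96 and Cd160 passed in all 15 alternatives that tested them, while the stricter expression filter left both untested.

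CM3 and MBT2, the other models of the High class, showed positive differences for all 7 receptors without a passing test. In CM3 they ran from 0.32 to 1.21 with adjusted p from 0.211 to 0.261, in a comparison in which 0% of 18434 genes passed although 4168 had an unadjusted p under 0.05. Without replicate 4 of the isotype arm all 7 passed, in a comparison in which 23.5% of genes did: Havcr2 by 1.53, Tigit by 1.45, Ctla4 by 1.29, Lag3 by 0.89, Cd96 by 0.54, Btla by 0.51 and Cd160 by 0.42. That library differed from the other 4 in more than the receptors: its macrophage genes summed to 1782 FPKM, against 542 to 757, and its B-cell genes to 11.2 FPKM, against 0.755 to 3.69. In the same arm, the FPKM of all genes summed to 885333 in replicate 3 and 784467 in replicate 2, against 525381 to 528393 in the rest. Replicate 3 also had the arm's lowest Havcr2 (0.294 FPKM) and Btla (0.0416 FPKM), though not its lowest Cd160 (0.9645 FPKM). Replicates 2 and 3 stayed in the fit without replicate 4. In MBT2 the differences ran from 0.59 to 1.12 with adjusted p from 0.0642 to 0.123, where 0.00570% of 17531 genes passed by limma although 4222 had an unadjusted p under 0.05. Without replicate 3 of the muDX400 arm all 7 passed, with 14.0% of genes: Lag3 by 1.34, Ctla4 by 1.16, Tigit by 1.08, Cd160 by 0.94, Havcr2 by 0.91, Cd96 by 0.72 and Btla by 0.58. Replicate 4 of the CM3 isotype arm and replicate 3 of the MBT2 muDX400 arm were left out after their values had been seen. When a single spread per gene was shared over all models, 17 of the 77 differences passed, with 7.30% of all genes.

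Averaged over the 11 models, 6 of the 7 receptors were higher after muDX400 by limma, in a comparison in which 20.7% of 18866 genes passed, 13.3% higher and 7.43% lower. The mean differences were 0.56 ± 0.08 for Tigit, 0.55 ± 0.09 for Lag3, 0.53 ± 0.07 for Ctla4, 0.48 ± 0.07 for Havcr2, 0.22 ± 0.05 for Cd96 and 0.19 ± 0.04 for Cd160, against a median of -0.01 over all genes. The adjusted p-values were 1.1e-07 for Tigit, 3.66e-06 for Lag3, 5.34e-08 for Ctla4, 2.89e-07 for Havcr2, 0.000841 for Cd96 and 0.000832 for Cd160. In this and the other means over models the libraries are the replicates, with 1 spread per gene for all models. The p-values of these means therefore do not measure the spread between models. Ctla4, Lag3, Havcr2, Tigit and Cd160 still passed when any 1 model was left out. Cd96 depended on MC38, without which it was at 0.11 (adjusted p = 0.166). Btla did not pass, at 0.11 ± 0.07 (adjusted p = 0.295), but did without replicate 2 of the RENCA isotype arm, at 0.17 ± 0.04 (adjusted p = 0.00192).

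**Figure D3:**
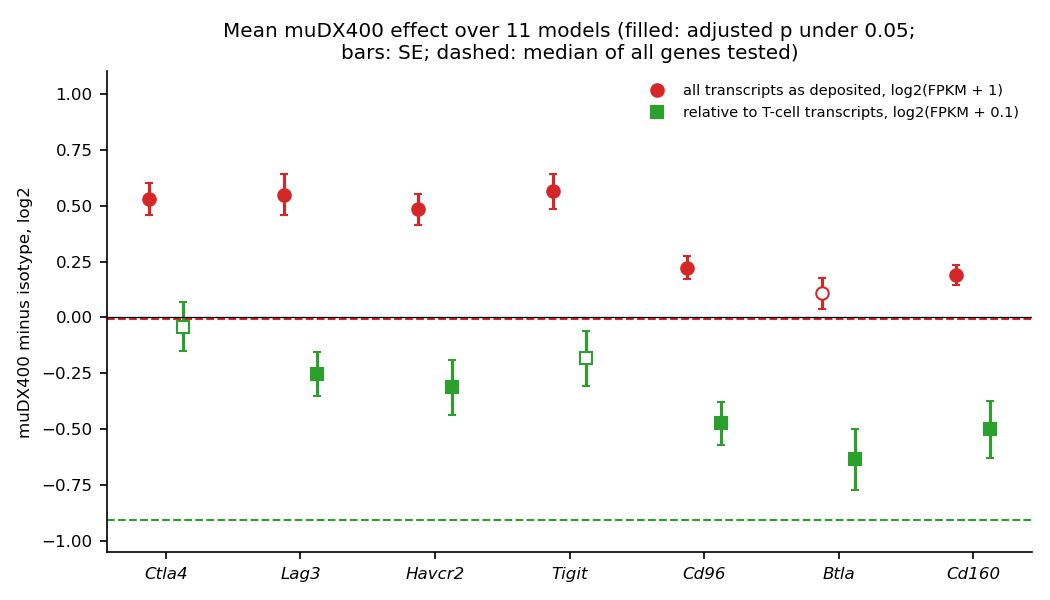
Mean difference between muDX400 and isotype tumours over the 11 models for each receptor (horizontal axis), on the log2 scale (vertical axis), as measured and relative to 5 T-cell transcripts. Bars are SE, filled points have an adjusted p under 0.05, and dashed lines give the median of all genes tested. As measured the receptors lie at or above 0.11, and relative to T-cell transcripts they lie between -0.63 (Btla) and -0.04 (Ctla4), all above the median of all genes at -0.91.

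The size of the difference was not the same in every model. The F test of the model-by-treatment terms passed for 6 of 7 receptors, in a comparison in which 29.1% of genes passed, with adjusted p of 1.09e-05 for Cd96, 9.34e-05 for Tigit, 0.000128 for Lag3, 0.000344 for Ctla4, 0.000482 for Havcr2 and 0.00324 for Cd160, and did not for Btla (0.201). This test takes 1 spread per gene for all models, and whether this assumption changes its p-values was not tested. Without MC38 it passed for Havcr2 and Cd160 only, without MBT2 it did not pass for Cd160, and with a pseudocount of 0.1 it did not pass for Ctla4. Havcr2 passed in all 17 alternatives, and Btla passed without RENCA (adjusted p = 0.0458).

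The response class given in the labels went with the size of the difference for all 7 receptors in sign and for 2 of 7 by test. The mean difference of the High, Partial and Resistant models was 1.26, 0.38 and 0.13 for Ctla4, 1.14, 0.41 and 0.06 for Havcr2, 1.39, 0.36 and 0.15 for Tigit, 1.36, 0.35 and 0.14 for Lag3, 0.80, 0.04 and -0.03 for Cd96, 0.57, 0.08 and 0.01 for Cd160 and 0.48, -0.06 and 0.00 for Btla. With the model as the replicate (n = 11), the slope per class step was 0.55 ± 0.09 for Ctla4 (adjusted p = 0.0411 by limma) and 0.53 ± 0.10 for Havcr2 (adjusted p = 0.0421), and 0.403% of all genes passed. Tigit (0.60 ± 0.13, adjusted p = 0.0567), Cd160 (0.27 ± 0.07, 0.0672), Cd96 (0.40 ± 0.11, 0.0778), Lag3 (0.59 ± 0.17, 0.0937) and Btla (0.22 ± 0.08, 0.156) did not pass. Tigit passed without replicate 4 of the CM3 isotype arm (0.65 ± 0.13, adjusted p = 0.0451), with the stricter expression filter (adjusted p = 0.0393) and without MB49, MBT2 or RENCA (adjusted p = 0.0426, 0.0405 and 0.0439). Btla passed without replicate 2 of the RENCA isotype arm (0.23 ± 0.04, adjusted p = 0.0413) or without RENCA (0.0355), and Cd160 without MB49 (0.0473). Both passing slopes were lost when any 1 of 8 models (4T1, B16F10, CM3, CT26, EMT6, LL2, MC38 or TC1) was left out, although they stayed between 0.43 and 0.68 over all alternatives. Within the 3 blocks of sample numbers that hold antibody-treated tumours the slopes were 0.72, 0.61 and 0.45 for Ctla4 and 0.67, 0.72 and 0.47 for Havcr2, the middle value of each resting on 2 models only. For Tigit, Btla, Cd96 and Cd160 the slope within that block of 2 models, B16F10 and RENCA, was negative (-0.04, -0.57, -0.19 and -0.07).

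Levels before or without PD-1 blockade showed no passing relation to class. The slope per class step at baseline lay between 0.07 (Tigit) and 0.71 (Lag3) and in isotype tumours between 0.00 (Tigit) and 0.83 (Lag3), and 0 of 7 receptors passed by limma in either arm. Neither did any other gene (0% in both arms), while 602 genes at baseline and 852 in the isotype arm had an unadjusted p under 0.05. Over all 11 models the 7 slopes were positive in both arms, but not within every block of sample numbers: that of Tigit was -0.42 at baseline over the block of 8 models and -0.33 and -0.56 in the isotype arm over the blocks of 4 and 5 models, and that of Havcr2 was -0.11 in the isotype arm over the block of 5. Tigit had the flattest slope in each arm. Its mean log2(FPKM + 1) level was highest in the Partial models, at 2.82 at baseline, against 2.04 in the High and 1.97 in the Resistant models.

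T cells carry these receptors, though not alone, so their difference was also measured relative to T-cell transcripts. The measure was log2(FPKM + 0.1) of the receptor minus the mean of the same quantity over Cd3d, Cd3e, Cd3g, Cd5 and Cd6 in the same library. It is not a level per T cell where other cells carry the receptor too. Across the 33 groups r with the T-cell list was 0.553 for Havcr2 and 0.643 for Tigit. The summed T-cell level itself was not alike in the arms of the High models: in MC38 it was 5.09 to 10.6 FPKM in isotype tumours and 19.6 to 77.4 FPKM after muDX400, in CM3 9.36 to 39.4 and 33.04 to 41.9 FPKM, and in MBT2 24.3 to 47.1 and 34.7 to 107 FPKM. The arms overlapped in CM3 and MBT2, and the test passed for 5 of the 5 genes in MC38 and for 0 of 5 by limma in CM3 and in MBT2, where 4 and 5 of them had an unadjusted p under 0.05. On this relative scale no receptor rose. Btla (-0.63 ± 0.14, adjusted p = 1.18e-05), Cd160 (-0.50 ± 0.13, 0.00014), Cd96 (-0.47 ± 0.10, 3.42e-06), Havcr2 (-0.31 ± 0.12, 0.0136) and Lag3 (-0.25 ± 0.10, 0.0129) were lower relative to T-cell transcripts by limma, averaged over models. Ctla4 (-0.04 ± 0.11, adjusted p = 0.71) and Tigit (-0.18 ± 0.12, 0.139) did not pass. Almost every gene falls on this scale, with 98.0% of 18866 genes passing as lower and a median of -0.91, so a low value does not single out a receptor. Ranked from the top of the 18866 genes, Ctla4 was at place 90, Tigit at 196, Lag3 at 280 and Havcr2 at 397. The calls of Havcr2 and Lag3 were lost with a pseudocount of 1, under which 3 of 7 passed. Havcr2 also lost its call without MC38 or without TC1 and Lag3 without MB49. Tigit passed as lower without replicate 2 of the RENCA isotype arm (-0.23, adjusted p = 0.0416) and with Cd8a and Cd8b1 as the reference (-0.29, adjusted p = 0.0363).

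In single models 7 relative differences passed, all of them lower. In MC38 these were Btla (-1.40 ± 0.49, adjusted p = 0.00645), Cd160 (-1.01 ± 0.46, 0.0357) and Havcr2 (-0.85 ± 0.41, 0.0444), where 95.6% of genes passed. The other 4 receptors lay within 0.23 of the T-cell transcripts in MC38: Ctla4 at 0.02 ± 0.42, Lag3 at 0.01 ± 0.40, Cd96 at 0.09 ± 0.44 and Tigit at 0.23 ± 0.41. In TC1, Cd160 (-1.27 ± 0.43), Cd96 (-1.02 ± 0.41), Tigit (-0.82 ± 0.30) and Havcr2 (-0.76 ± 0.28) were lower, where 74.6% of genes passed, on a T-cell sum of only 0.715 to 1.55 FPKM in isotype tumours and 1.36 to 2.81 FPKM after muDX400. With Cd8a and Cd8b1 as the reference, or with a pseudocount of 1, none of these 4 TC1 differences passed. With the pseudocount of 1 they shrank to -0.33 for Cd160, -0.30 for Cd96, -0.27 for Tigit and -0.23 for Havcr2, and Havcr2 in MC38 did not pass either (-0.39). In CM3, Lag3 passed as lower without replicate 4 of the isotype arm (-0.67, adjusted p = 0.0183). Without replicate 3 of the TC1 isotype arm those of Havcr2 and Tigit did not pass, nor did that of Cd96 without isotype replicate 4 or 5 or muDX400 replicate 3. The MC38 call of Cd160 was lost in the absence of any 1 of 7 libraries and that of Havcr2 in all but 5 of 14 alternatives, while that of Btla was kept in all 13.

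The same ratio sets the models apart in the isotype arm. Tigit stood 4.60 ± 0.51 (SD, n = 5) log2 units above the T-cell transcripts in LL2, 2.74 ± 0.36 in TC1 and 2.63 ± 0.59 in CT26, but at 0.04 ± 0.42 in MC38 and -0.82 ± 0.75 in CM3. Havcr2 likewise stood 3.91 ± 0.56 above in LL2, 3.81 ± 0.37 in TC1 and 3.29 ± 0.45 in EMT6, and -0.63 ± 0.70 in CM3. LL2 isotype tumours thus had 4.27, 4.77, 4.52, 4.55 and 5.27 FPKM of Tigit beside a T-cell sum of 0.146 to 1.42 FPKM, an NK-cell sum (Ncr1, Klrb1c, Klre1 and Klra8) of 0.144 to 0.623 FPKM and a macrophage sum of 338 to 596 FPKM. Which cells the transcripts came from was not tested. Lag3 was the receptor with the narrowest spread of this ratio in the isotype arm, from 0.88 ± 0.39 in MBT2 to 2.69 ± 0.27 in TC1, closely followed by Ctla4, from -1.75 ± 0.71 in MBT2 to 0.11 ± 0.38 in TC1. This order did not hold at baseline (n = 3). There Lag3 ran from -1.30 ± 0.18 in LL2 to 2.67 ± 0.29 in MC38, and Ctla4 from -1.95 ± 0.39 to 0.23 ± 0.24 in the same models.

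**Figure D4:**
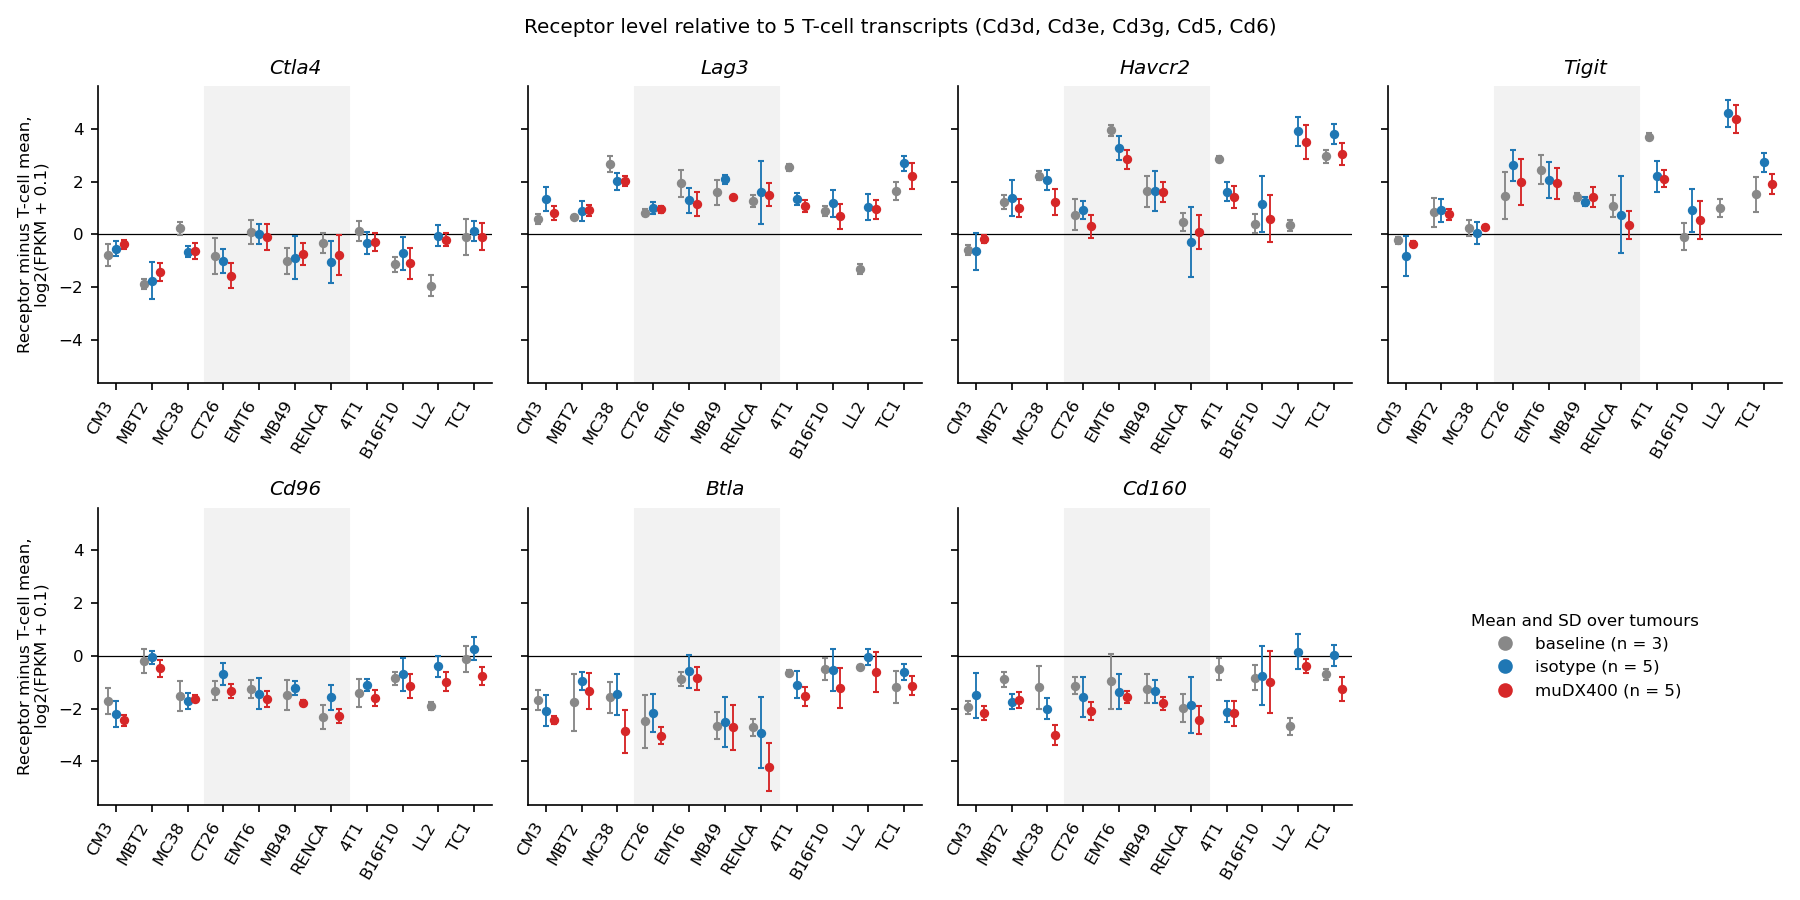
Receptor level relative to the mean of 5 T-cell transcripts, in log2(FPKM + 0.1) units (vertical axis), by model (horizontal axis) and arm, as mean and SD over tumours (baseline n = 3, isotype and muDX400 n = 5 each). In isotype tumours Tigit and Havcr2 stand highest in LL2, and the isotype and muDX400 points of MC38 lie close together for Ctla4, Lag3, Tigit and Cd96.

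Isotype tumours, taken on day 19 and in most models numbered in another block, differed from baseline in both directions. Of 75 differences tested, 3 were higher and 15 lower, and 11.7% of all gene-by-model tests passed. In TC1 all 7 receptors were lower in isotype tumours, in a comparison in which 32.6% of genes passed: Havcr2 by -0.86 ± 0.17, Ctla4 by -0.68 ± 0.19, Lag3 by -0.58 ± 0.10, Cd96 by -0.55 ± 0.09, Tigit by -0.46 ± 0.13, Cd160 by -0.36 ± 0.08 and Btla by -0.33 ± 0.09. The T-cell sum there was 3.24 to 6.27 FPKM at baseline and 0.715 to 1.55 FPKM in the isotype arm, and its part in these differences was not tested. The Ctla4 call in TC1 was lost without baseline replicate 1 or 3, and that of Tigit without baseline replicate 2 or 3 or isotype replicate 5. In LL2, Btla was lower by -1.14 ± 0.08 (adjusted p = 3.47e-05), from 1.23, 1.48 and 1.56 FPKM at baseline to 0.0762, 0.240, 0.0400, 0.0842 and 0.0648 FPKM, beside a B-cell sum that was 21.5 to 29.1 FPKM at baseline and 0.812 to 1.03 FPKM in the isotype arm and a T-cell sum of 8.52 to 11.7 and 0.146 to 1.42 FPKM. Ctla4, Lag3 and Cd96 were lower in LL2 as well (-0.38 ± 0.07, -0.39 ± 0.09 and -0.46 ± 0.07, with 23.4% of genes passing, that of Lag3 being lost without baseline replicate 3), while Tigit was at 0.19 ± 0.10 and Havcr2 at 0.15 ± 0.09, neither of which passed. In CT26, Ctla4 (-0.74 ± 0.15), Havcr2 (-0.77 ± 0.13) and Cd160 (-0.81 ± 0.25) were lower, with 20.0% of genes, and in MBT2 Cd160 was (-0.94 ± 0.16, with 15.6%). The Cd160 call in CT26 held in only 2 of 12 alternatives. In 4T1, Ctla4 (0.45 ± 0.13), Btla (0.36 ± 0.10) and Cd96 (0.55 ± 0.14) were higher, with 13.1% of genes passing, beside T-cell sums of 3.06 to 3.48 and 7.03 to 16.5 FPKM. Each of these 3 calls was lost without baseline replicate 1 or 2, among other alternatives. The Ctla4 call held in 3 of 12 alternatives, that of Btla in 5 of 12 and that of Cd96 in 6 of 12. In B16F10 and RENCA, where all arms share a block, 0 receptors passed of those tested by limma (1.53% and 9.41% of genes did). The labels do not say on which day baseline tumours were taken. The day of removal and the injections cannot be told apart in any model, and in the other 9 models the block cannot either. In B16F10 and RENCA the baseline libraries were also sequenced more deeply than the isotype libraries. Averaged over models Cd160 was lower (-0.19 ± 0.05, adjusted p = 0.00566) and the other 6 did not pass, in a comparison in which 30.0% of genes passed; without CT26 or without MBT2 Cd160 did not pass either. Ctla4 passed as lower without replicate 2 of the RENCA isotype arm (-0.16, adjusted p = 0.0458) and Havcr2 without replicate 4 of the CM3 isotype arm (-0.18, adjusted p = 0.0487). These isotype tumours are the same ones that serve as controls for muDX400.

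**Figure D5:**
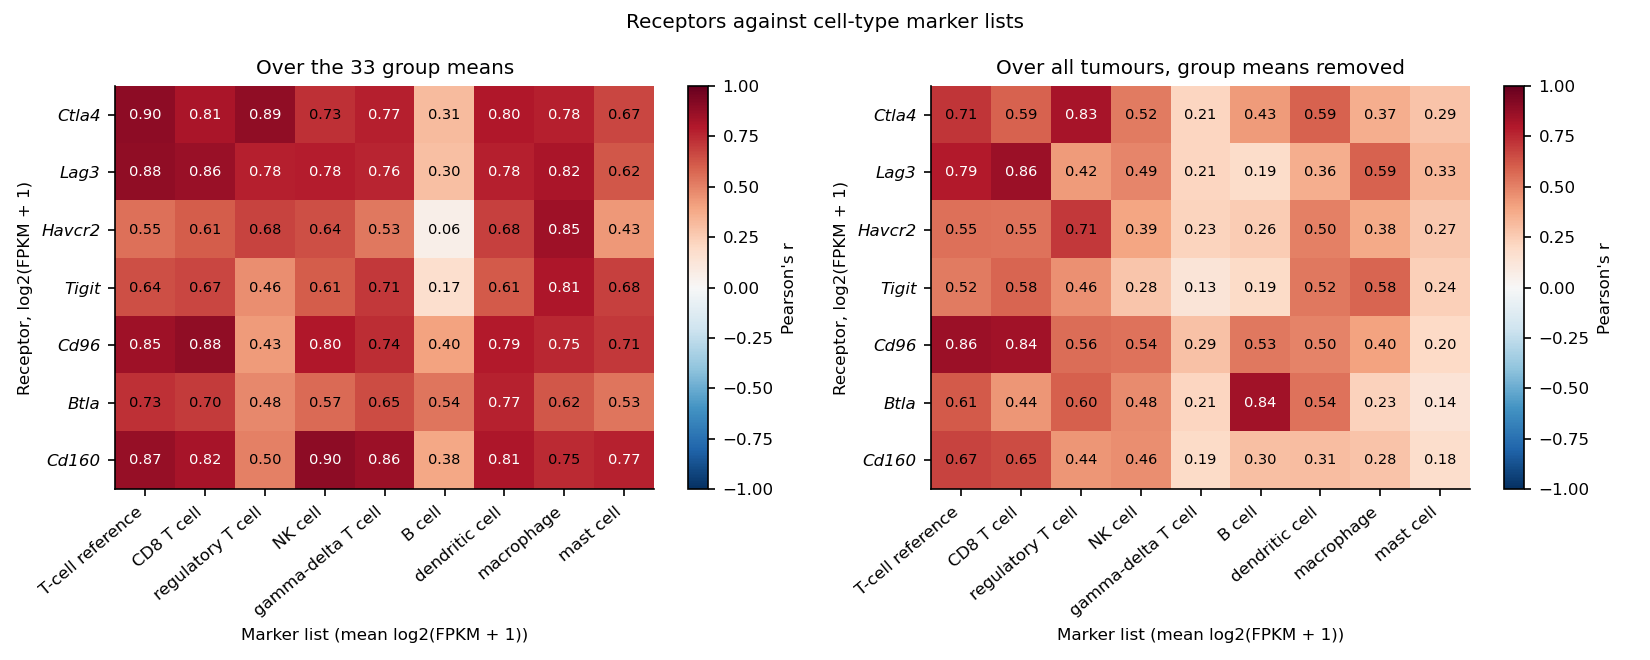
Pearson's r of each receptor (rows) with 9 cell-type marker lists (columns), across the means of the 33 groups and across all libraries after subtraction of group means. Among the receptors, Lag3, Ctla4, Cd96 and Cd160 have the highest r with the T-cell list in both panels. For Havcr2 and Tigit the highest r across groups is with the macrophage list. Every receptor has a higher r with the macrophage list across groups than within them.

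Across the 33 groups of model and arm, the receptors differed in the cell-type markers they went with. These correlations are descriptions over groups that share libraries, depth and models. Ctla4 had r = 0.897 with the T-cell list and 0.888 with a regulatory T-cell list (Foxp3, Ccr8, Il2ra and Ikzf2), and 0.712 and 0.826 within groups, that is, over all libraries after subtraction of the group means. Lag3 had 0.885 with the T-cell list and 0.860 with Cd8a and Cd8b1 (within groups 0.790 and 0.855). Cd96 had 0.883 with the CD8 genes and 0.851 with the T-cell list (within groups 0.843 and 0.857). Cd160 had 0.896 with the NK-cell list and 0.872 with the T-cell list (within groups 0.462 and 0.672). For Havcr2 and Tigit the highest r across groups was with macrophage genes (Adgre1, Csf1r, Cd68, C1qa, C1qb, C1qc, Mrc1 and Ms4a7), 0.846 and 0.808, against 0.553 and 0.643 with the T-cell list. A macrophage r of this order was not particular to them: it was 0.816 for Lag3, 0.777 for Ctla4, 0.753 for Cd96, 0.750 for Cd160 and 0.617 for Btla. Within groups, the macrophage r of Havcr2 was 0.379 and its highest was 0.708 with the regulatory T-cell list. That of Tigit was 0.5826, beside 0.5833 with the CD8 genes, its highest. Btla had 0.767 with the dendritic-cell list (Flt3, Zbtb46, Xcr1, Clec9a and Cd209a) across groups and 0.842 with the B-cell list within groups, the latter falling to 0.514 without replicate 2 of the RENCA isotype arm. Among the members themselves Ctla4 and Lag3 had the highest Pearson's r over group means, 0.908 (within groups 0.508). By Spearman's rho over group means it was Cd96 and Cd160 (0.916), and within groups Ctla4 and Havcr2 (0.739).

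The genes most like each receptor over the 33 groups, out of 13429 genes with a mean of at least 1 FPKM, were of different kinds. Icos, which encodes a co-stimulatory receptor of activated and regulatory T cells, was nearest to Ctla4 (r = 0.970, and 0.907 within groups), followed by P2ry14 (0.947) and the cytokine subunit gene Il27 (0.942). Nearest to Lag3 were Ebi3 (0.943), the MHC class II gene H2-Aa (0.940), which encodes part of the ligand of LAG-3, and Il18bp (0.936). Havcr2 was followed by Rassf5 (0.933), Evi2a (0.932) and the interferon-induced Epsti1 (0.908), and Tigit by the macrophage lysozyme gene Lyz2 (0.890), Rras (0.871) and Crebl2 (0.859). Rras, at 0.871 across groups, had r = -0.128 with Tigit within groups. Nearest to Btla were the T-cell receptor segment gene Trbv5 (0.850), the lymphoid transcription factor gene Ikzf3 (0.833) and H2-Ob (0.830), an MHC class II gene of B cells. Cd96 was followed by Sh2d2a (0.934), Pdcd1 (0.933), which encodes PD-1 itself, and Ikzf3 (0.925), and Cd160 by the T-cell kinase gene Zap70 (0.931), the transcription factor gene Tbx21 (0.920) and Cd7 (0.915). Within groups r was lower than across groups for all of these genes except H2-Ob with Btla (0.857). After Rras it was lowest for Crebl2 with Tigit (0.2945) and Trbv5 with Btla (0.4745).

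Ligands and partners of the receptors also differed between the arms. In MC38, 7 of 14 ligand genes were higher and 2 lower after muDX400, with the largest rise in H2-Aa (1.83 ± 0.26) and the largest fall in Hmgb1 (-0.52 ± 0.12), and the median of the list was 0.52 against -0.01 over all genes. Of all genes 14.0% were higher and 8.68% lower in MC38, which stands beside each count here. The 4 activating partners (Cd28, Cd4, Cd226 and Tnfsf14) were all higher, led by Cd4 at 1.26 ± 0.23. Of 7 genes of inhibitory signalling 5 were higher, led by Ptpn6, which encodes the phosphatase SHP-1 (1.23 ± 0.16), and of 16 transcription factors of activated or exhausted T cells 10 were higher, led by Id2 (1.60 ± 0.20). Pdcd1 was higher by 2.17 ± 0.31, near the values of Lag3 and Tigit. Marker genes of several cell types moved with these genes in MC38: 5 of 5 T-cell genes were higher (Cd3g by 2.55), 2 of 2 CD8 genes (Cd8b1 by 2.74), 3 of 4 regulatory T-cell genes (Il2ra by 0.89), 3 of 4 NK-cell genes (Klre1 by 1.34), 8 of 8 macrophage genes (Ms4a7 by 1.64), 4 of 5 dendritic-cell genes (Clec9a by 1.19) and 5 of 5 mast-cell genes (Tpsb2 by 2.45), but 0 of 4 B-cell genes and 0 of 2 gamma-delta T-cell genes. The macrophage sum was 817 to 1301 FPKM in isotype tumours and 1550.2 to 3200 FPKM after muDX400, and the CD8 sum 2.83 to 7.68 and 16.4 to 69.5 FPKM. No marker of these lists was at 0 throughout either arm. The part of these cell types in the receptor differences was not tested.

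In RENCA, where no receptor passed, single genes of the pathways did: Nectin2, a ligand of TIGIT, by 0.80 ± 0.18, Tnfsf14, which binds the herpesvirus entry mediator, by 1.00 ± 0.20, Nr4a1, an early target of T-cell receptor signalling, by 1.57 ± 0.21 and Cd274, which encodes PD-L1, by 1.08 ± 0.22, in a comparison in which 1.64% of genes passed. Averaged over the 11 models 9 of 14 ligand genes were higher and 0 lower (H2-Eb1 by 0.79 ± 0.18), as were 4 of 4 activating partners (Cd4 by 0.42 ± 0.07), 3 of 7 genes of inhibitory signalling (Ptpn6 by 0.33 ± 0.07) and 13 of 16 transcription factors (Tbx21 by 0.36 ± 0.06), beside 13.3% of all genes higher and 7.43% lower. The medians of these 4 lists were 0.18, 0.33, 0.11 and 0.22, against -0.01 over all genes, and 0 of 4 B-cell genes passed. The slope with response class passed for Cd274 (0.86 ± 0.12), Cd6 (0.48 ± 0.07), Clec9a (0.46 ± 0.07), Cd28 (0.41 ± 0.08), Dgka (0.33 ± 0.06) and Ccr8 (0.33 ± 0.05). Each is named only as the largest passing slope of its list, and 0.403% of all genes passed.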

How the data were processed

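RNA from whole subcutaneous tumours was sequenced as ribosome-depleted stranded total RNA, per the labels' protocols. The authors deposited FPKM values per gene and library in 1 table; the aligner, the quantifier, the genome build and annotation, and the strand setting are named in none of the sources used here. FPKM values hold no counts, so no count model was used, and depth was estimated from the smallest steps between values. Values were analysed as log2(FPKM + 1) with limma 3.58.1 in R 4.3.3 (empirical Bayes with trend), separately in each model for muDX400 against isotype and for isotype against baseline, and over all models for the mean difference, the F test of its difference between models and the slope with response class (Resistant 0, Partial 1, High 2, with the model as the replicate). Genes with a mean of at least 0.1 FPKM over the libraries of a comparison were tested, and p-values were adjusted over all of them by Benjamini and Hochberg; a difference passed under 0.05. The minimum was set low because the rarest receptors would otherwise drop out. For values relative to T cells a pseudocount of 0.1 was used. Sequences came from RefSeq (GRCm38.p6) and gene positions from GENCODE M21, matched by identifier; the build behind the authors' values may be another.

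The 7 members and all gene lists were chosen with earlier results of these data known. The text names the 7 members, the 3 genes with the highest r to each over group means, the largest passing rise and fall of each list, and Pdcd1 and Cd274. Alternatives were another pseudocount, no or a stricter expression filter (at least 1 FPKM in at least 5 libraries), median-ratio scaling, a spread shared over models, a CD8 reference, the replicate number as a block, the block of sample numbers as a covariate, and leaving out each library or model. Fits over all models without replicate 2 of the RENCA isotype arm or replicate 4 of the CM3 isotype arm were added after the data were seen. Whether replicate numbers pair tumours of the 2 antibody arms was checked by the correlation of same-numbered tumours' deviations from their group means, which ran from -0.604 to 0.534 and exceeded 0.1 in 17 of 55 pairs, so the numbers were not taken as pairs. The fitting code was tested on simulated data. No columns of the table were left unused. A marker gene each of the B-cell and macrophage lists is not reported here and was left out of all values of those lists.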

Additional observations from a re-analysis of the deposited data

Results flagged for a closer look

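In 12 of 154 receptor-by-group sets of 5 tumours, 1 tumour stood further from the rest than Dixon's 95% limit, which chance alone exceeds in about 1 of 20 sets. In replicate 2 of the RENCA isotype arm Btla was at 10.1 FPKM (the others 0.0801 to 0.320) and Ctla4 at 5.37 FPKM (the others 1.27 to 1.86), in the tumour whose B-cell sum was 684 FPKM. In replicate 4 of the CM3 isotype arm Ctla4 was at 3.66 FPKM (the others 0.979 to 1.47) and Lag3 at 11.0 FPKM (the others 4.49 to 5.75). Replicate 3 of the B16F10 isotype arm had the highest T-cell sum of its arm and stood apart for Tigit at 2.25 FPKM (the others 0.0978 to 0.497), Ctla4 at 0.706 FPKM (the others listed at 0) and Cd96 at 0.176 FPKM (the others 0.0206 to 0.0459). The remaining 5 were single values: Btla at 0.240 FPKM in LL2 isotype replicate 2, Havcr2 at 2.43 FPKM in TC1 isotype replicate 4 (low) and at 3.98 FPKM in LL2 muDX400 replicate 1, Lag3 at 6.19 FPKM in MB49 muDX400 replicate 5 (low) and Tigit at 2.39 FPKM in EMT6 muDX400 replicate 1 (low).

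The difference between muDX400 and isotype tumours differed between models by limma's F test for Cd96 (adjusted p = 1.09e-05), Tigit (9.34e-05), Lag3 (0.000128), Ctla4 (0.000344), Havcr2 (0.000482) and Cd160 (0.00324). Its slope with response class over the 11 models passed for Ctla4 (adjusted p = 0.0411) and Havcr2 (adjusted p = 0.0421) by limma.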

How the results depend on the processing

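Depth limits the rarest receptors, since a mean near 0.1 FPKM is a few fragments, and the values without raw counts allow no interval for it. The 6 passing muDX400 differences, all in MC38, passed in every alternative that tested them. Cd96 and Cd160 were not tested in MC38 with the strict filter. The count was 6 with the replicate block and 17 with a spread shared over models. It ran from 6 to 13 when single libraries were left out. Of 1130 refits of single differences 26 changed sign, none of them a passing one. The mean difference over models kept 6 passing receptors with the replicate block. The F test between models passed for 2 receptors without MC38. The count of passing class slopes was 0 with a pseudocount of 0.1, with no expression filter, with median-ratio scaling and without any 1 of 4T1, B16F10, CM3, CT26, EMT6, LL2, MC38 or TC1, 4 without MB49 or without RENCA, and 3 with the strict filter or without MBT2, CM3 isotype replicate 4 or RENCA isotype replicate 2. Relative to T-cell transcripts 3 receptors passed with a pseudocount of 1. For isotype against baseline, the count of 18 became 6 with the strict filter, which leaves fewer receptors to test, and 12 with the replicate block, which lost 10 calls (those of 4T1 and CT26 and 4 of TC1) and gained 4 higher ones in EMT6 (Btla, Ctla4, Havcr2 and Tigit); averaged over models, the count of 1 became 0 without CT26 or MBT2 and 2 without 4T1, EMT6, CM3 isotype replicate 4 or RENCA isotype replicate 2. Same-numbered tumours of the antibody arms correlated best with each other in 9 of 55 cases, and the cause of a changed call was not tested.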
